A study of Arabidopsis thaliana with 12 samples.

Results

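Hsp70-2 (AT5G02490, chromosome 5) and AT2G20560 (chromosome 2) encode an Hsp70 and a DnaJ-type co-chaperone, protein classes that work together. Whether the products of these 2 genes work with each other was not tested. The pair are 2 of the 16548 genes that could be named and tested on these arrays, and each was read by a single probe set. They were picked by locus, after results of these arrays were known, above all for their levels in the untreated genotypes. Their values between the untreated genotypes, and in every difference that uses the untreated arrays, are therefore given as a description, with no test.

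The 12 arrays came from whole 7-day-old Arabidopsis thaliana seedlings in 4 groups of 3. These were wild-type Col-0 without lincomycin (Col-0 control), Col-0 on 0.5 mM lincomycin, the mutant gun1-101 without lincomycin (gun1-101 control) and gun1-101 on 0.5 mM lincomycin. Lincomycin blocks translation inside plastids, and GUN1 is a plastid protein of plastid-to-nucleus signalling. All groups shared the same schedule of 2 days of stratification, 8 h of light, 5 days of darkness and 2 days of continuous light, and lincomycin was in the plates from sowing, so no array shows seedlings before or shortly after exposure. The labels name biological replicates without saying whether they were separate sowings, so the p-values rest on the spread between these samples, whatever its source. GUN1 itself is not analysed here, and the genotype labels were not checked against it.

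Hsp70 proteins are ATP-driven chaperones that bind unfolded stretches of other proteins and let them go again. DnaJ-type proteins bring clients to Hsp70 and speed its ATP hydrolysis, nucleotide exchange factors such as Fes1A reset it, and Hop proteins pass clients from Hsp70 on to Hsp90. In plants, some cytosolic Hsp70 and DnaJ-type genes belong to the heat stress programme run by heat shock factors, and cytosolic Hsp70 also accompanies precursor proteins on their way to organelles.

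Values are RMA expression on a log2 scale, so a difference of 1 is a doubling. Differences were taken between arrays for each gene. Where a level is set beside those of other genes or probe sets, it is a description only. The median over the genes tested ranged from 6.59 to 6.70 between arrays. Col-0 control replicate 1 stood apart from its group: its mean correlation with the other Col-0 controls was 0.979, and it was closest to gun1-101 control replicate 1 (0.992). Col-0 lincomycin replicate 3 had the lowest mean correlation of its group (0.986). Over 7083 unnamed probe sets that precede the first named one, array medians ranged from 4.50 to 5.37, both ends within the Col-0 controls. The light-harvesting gene LHB1B2 (11.10 to 11.77 over the 6 untreated arrays) and the root peroxidase gene PRX72 (AT5G66390, 9.05 to 9.47) were both measured at high levels. The other measured leaf and root markers, the guard cell factor gene FMA (7.55 to 8.10) and EXPA7 (6.01 to 7.60), read lower. In bulk seedlings, fewer cells of a type and less RNA per cell cannot be told apart.

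Hsp70-2 was high in untreated gun1-101 and low in untreated Col-0. The gun1-101 controls read 8.41, 8.22 and 8.29, against 6.22, 6.02 and 5.86 in the Col-0 controls. The lowest gun1-101 control lay far above the highest Col-0 control, and the spread inside each group was small. The means were 8.31 ± 0.09 and 6.03 ± 0.18 (SD, n = 3), a log2 difference of 2.27 (SE 0.235) or 4.83-fold. By size this was the difference ranked 3 among the 16548 genes. Without Col-0 control replicate 1, the highest Col-0 control for this gene, the difference was 2.37.

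AT2G20560 was also higher in untreated gun1-101, by less. Its untreated gun1-101 arrays read 5.65, 5.66 and 5.57, and its untreated Col-0 arrays 5.13, 4.75 and 5.22. These groups did not overlap either. The means were 5.63 ± 0.05 and 5.03 ± 0.25 (SD, n = 3), a log2 difference of 0.59 (SE 0.20) or 1.51-fold, and its rank by size was 954 of 16548. Levels this low sit near the medians of the unnamed leading probe sets given above. The table holds no detection call, and whether the Col-0 controls measured this transcript above background was not tested. With the median of those probe sets as a covariate, chosen after seeing the data, the untreated difference was 0.59.

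Groups that do not overlap were common between the untreated genotypes, at 15.3% of all genes (8.18% higher and 7.16% lower in gun1-101), so the separation of these 2 genes is read as no more than a description. Calls were rare: limma called 0.0181% of genes (0.0121% higher, 0.00604% lower), or 3 genes at an adjusted p under 0.05. These counts run over all genes, the pair included. The pair was chosen for its untreated levels, so a call of either gene in this contrast is no evidence and is not given. Outside the pair the called genes were AT5G66150 (higher by 1.32, SE 0.164, limma adjusted p = 0.0219) and AT5G62360 (-1.53, SE 0.186, limma adjusted p = 0.0219). Both of those calls ended when any of 7 arrays was left out, namely Col-0 control replicate 2 or 3, any gun1-101 control, Col-0 lincomycin replicate 2 or gun1-101 lincomycin replicate 2, with limma adjusted p from 0.0569 to 0.19 and from 0.0569 to 0.18. Neither was called in a fit to the untreated groups alone (limma adjusted p = 0.232 for AT5G66150 and 0.181 for AT5G62360) or with the replicate block (0.0637 for each). On lincomycin AT5G66150 differed between genotypes by -0.06 (limma adjusted p = 0.863) and AT5G62360 by 0.36 (limma adjusted p = 0.254).

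**Figure D1:**
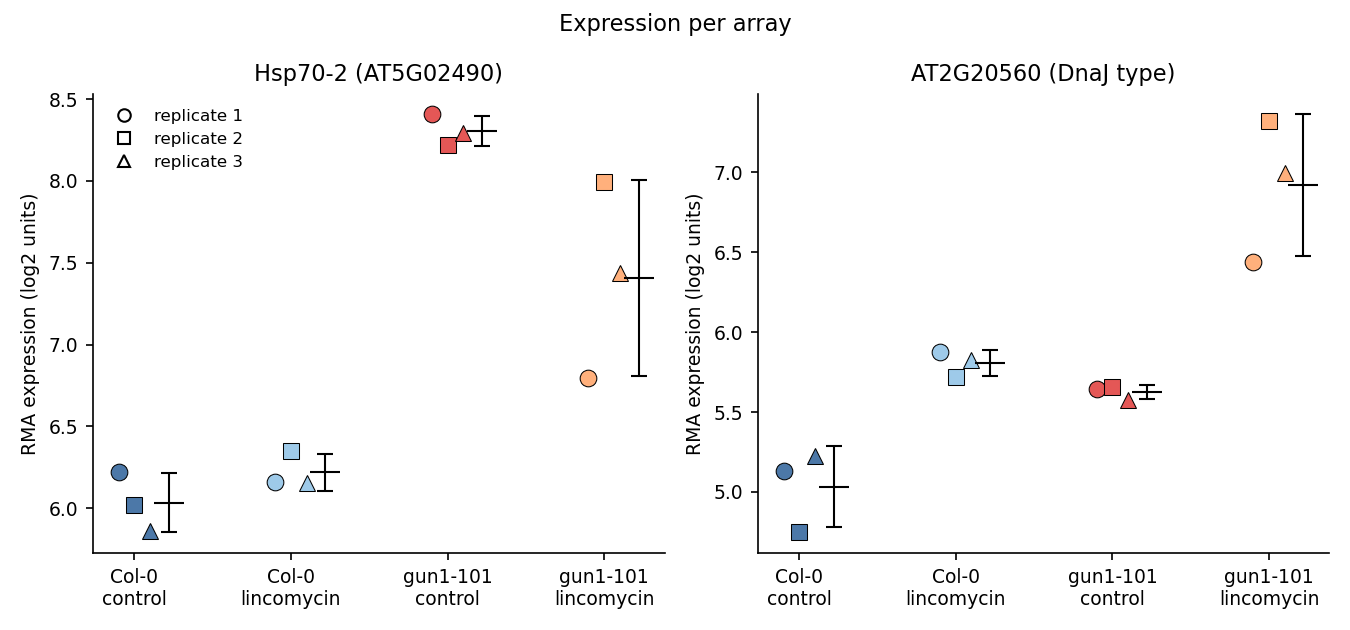
RMA expression (log2 units) of Hsp70-2 (left) and AT2G20560 (right) in each of the 12 arrays by group. Symbols are replicates, the horizontal mark is the group mean and the bar is 1 SD (n = 3). Hsp70-2 is highest in the gun1-101 controls (8.22 to 8.41), while AT2G20560 is highest in gun1-101 on lincomycin (6.44 to 7.32).

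Seedlings grown on lincomycin gave arrays that the untreated difference did not use, and there the genotypes were tested. The pair was chosen after results of these arrays were known, so the test is not independent of that choice. The spread behind it also draws on the untreated arrays. The question was whether the mutant also stood above the wild type when plastid translation was blocked. Both genes were higher in gun1-101.

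For Hsp70-2 the gun1-101 lincomycin arrays read 6.80, 7.99 and 7.43, against 6.16, 6.35 and 6.15 in Col-0 on lincomycin. The groups did not overlap, but the mutant arrays were widely spread, and replicate 1 lay only 0.44 above the highest Col-0 array. The means were 7.41 ± 0.60 and 6.22 ± 0.11 (SD, n = 3), a log2 difference of 1.19 (SE 0.235, limma adjusted p = 0.00851) or 2.28-fold.

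For AT2G20560 the gun1-101 lincomycin arrays read 6.44, 7.32 and 6.995, against 5.88, 5.72 and 5.82 in Col-0 on lincomycin. Again the groups did not overlap, and replicate 1 of gun1-101 was nearest to Col-0. The means were 6.92 ± 0.44 and 5.81 ± 0.08 (SD, n = 3), a log2 difference of 1.11 (SE 0.20, limma adjusted p = 0.00471) or 2.16-fold.

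With lincomycin, 9.58% of all genes were called between genotypes, 5.12% higher and 4.45% lower in gun1-101. For 30.5% of genes the arrays of the genotypes did not overlap (12.9% higher, 17.6% lower). The calls of both genes held under all 21 alternatives run, with limma adjusted p from 0.00103 to 0.0382 for Hsp70-2 and from 0.00111 to 0.0258 for AT2G20560. For a single gene, 3 arrays against 3 cannot reach an exact permutation p below 0.1, so these p-values rest on the limma model. It pools the gene's own spread over all 4 groups (8 residual degrees of freedom). The spread over all genes then moderates it (3.885 prior degrees of freedom). The moderated SD was 0.29 for Hsp70-2 and 0.24 for AT2G20560, below the 0.60 and 0.44 of their gun1-101 lincomycin arrays. The SE thus understates the spread of that group.

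Within gun1-101 the lincomycin differences of the 2 genes had opposite signs. Hsp70-2 was lower in every gun1-101 lincomycin array than in every gun1-101 control, on average 1.86-fold (log2 difference -0.90, SE 0.235). The lowest control stood 0.23 above the highest lincomycin array. Leaving out gun1-101 lincomycin replicate 1 brought the difference to -0.59, and leaving out replicate 2 to -1.19. AT2G20560 was higher in every gun1-101 lincomycin array than in every gun1-101 control, by 1.29 (SE 0.20) or 2.45-fold. In this genotype the arrays of the treatments did not overlap for 45.9% of all genes (21.7% higher and 24.2% lower with lincomycin), and 20.4% of genes were called.

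In Col-0 the lincomycin differences were smaller. Hsp70-2 was 0.19 (SE 0.235) higher with lincomycin, and the groups overlapped, since Col-0 control replicate 1 (6.22) lay above 2 of the 3 lincomycin arrays. AT2G20560 was 0.77 (SE 0.20) higher or 1.71-fold, with the lowest lincomycin array (5.72) above the highest control (5.22). The arrays of the treatments did not overlap for 27.4% of genes in Col-0 (14.8% higher, 12.6% lower), and 14.3% were called. The response of gun1-101 minus that of Col-0 was -1.09 (SE 0.33) for Hsp70-2 and 0.52 (SE 0.28) for AT2G20560, or 0.32 for AT2G20560 without gun1-101 lincomycin replicate 2. The Col-0 difference of Hsp70-2 was 0.10 without Col-0 control replicate 3 and 0.12 without Col-0 lincomycin replicate 2. All these differences use the untreated arrays for which the genes were chosen, so they carry no test.

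Ordered by level, Hsp70-2 ran from Col-0 control through Col-0 lincomycin and gun1-101 lincomycin to gun1-101 control. The Col-0 groups did not differ beyond their spread, whereas each later step was free of overlap. AT2G20560 ran from Col-0 control through gun1-101 control and Col-0 lincomycin to gun1-101 lincomycin, a total of 1.88 log2 units or 3.69-fold. Its middle groups were 0.18 apart in the mean, with only 0.06 between the highest gun1-101 control and the lowest Col-0 lincomycin array. Both genes thus had their highest level in gun1-101, Hsp70-2 without lincomycin and AT2G20560 with it.

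The chaperone genes around these were taken from 11 hand-written lists of 110 loci. Only 37 of these loci were measured and named here, 35 besides Hsp70-2 and AT2G20560. No Hsp90 gene and no heat shock factor of the lists was among them. For loci that the annotation gives only by locus tag, the class is that of the list.

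Between the untreated genotypes none of the 35 was called by limma (median difference 0.20, against 0.016 over all genes). At an unadjusted p under 0.05 there were 11 higher and 1 lower, where 6.18% of all genes were higher and 6.54% lower. Without Col-0 control replicate 1, limma called 2 of the 35 and 6.37% of all genes, a like share. Both were higher in gun1-101: the DnaJ type II locus AT1G59725 (0.76, adjusted p = 0.0458) and ROF2 (AT5G48570), a peptidyl-prolyl isomerase of the FKBP family (2.12, adjusted p = 0.0403). With Col-0 lincomycin replicate 3 left out as well there were 4, where 17.2% of all genes were called. With all arrays ROF2 stood at 8.45, 8.65 and 8.91 in untreated gun1-101 against 6.84, 6.55 and 6.55 in untreated Col-0, a log2 difference of 2.02 (SE 0.41, limma adjusted p = 0.223). In a fit to the untreated groups alone it was called (limma adjusted p = 0.0218). The groups did not overlap, and the size was close to that of Hsp70-2, but the SE was larger. ROF2 differed on lincomycin by 1.09 (limma adjusted p = 0.124), or 1.58 without gun1-101 lincomycin replicate 1 (adjusted p = 0.0257).

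On lincomycin, 11 of the 35 rose in gun1-101 relative to Col-0 and none was called lower by limma (3 at an unadjusted p under 0.05, against 13.5% of all genes), where 5.12% of all genes were called higher. The count was 6 without gun1-101 lincomycin replicate 2 and 6 without replicate 3, where 6.54% and 4.99% of all genes were called in either direction. Their median difference was 0.21, against -0.048 over all genes, and the differences ran from -0.47 to 3.59. Small heat shock genes, which hold unfolding proteins in solution, made up 8 of the 11, out of 12 such genes measured. AT1G53540 differed by 3.59 (SE 0.345, limma adjusted p = 6.77e-05) and AT1G07400 by 2.91 (SE 0.417, limma adjusted p = 0.00124). The others were AT5G37670 (2.36), AT1G52560 (2.26), AT1G59860 (1.89), ATHSP22.0 (AT4G10250, 1.67), AT2G19310 (1.47) and AT5G51440 (1.42). Of these, AT1G59860 and AT5G51440 lost their calls without Col-0 lincomycin replicate 1 or 2 or gun1-101 lincomycin replicate 2 or 3, with limma adjusted p from 0.0575 to 0.071 and from 0.0716 to 0.106. In a fit to the lincomycin groups alone AT5G51440 was not called either (limma adjusted p = 0.0666). The small heat shock genes not called were AT2G29500 (0.76, limma adjusted p = 0.0512), AT4G21870 (0.105), AT5G54660 (-0.03) and AT5G47600 (-0.22). AT2G29500 was called under some alternatives, for example with an intensity trend (limma adjusted p = 0.0334).

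The other 3 of the 11 were Hop3 and Fes1A, from the list of Hsp70 and Hsp90 co-chaperones, and HSA32, from that of Hsp100 and heat stress associated genes. Hop3, an adaptor between Hsp70 and Hsp90, read 8.81, 10.33 and 9.68 in gun1-101 and 8.44, 8.46 and 7.71 in Col-0, a difference of 1.41 (SE 0.33, limma adjusted p = 0.0187). Its relatives Hop1 (0.08) and Hop2 (-0.04) were not called. Fes1A, a nucleotide exchange factor of Hsp70, read 7.76, 9.15 and 8.63 against 7.51, 7.46 and 7.36, a difference of 1.07 (SE 0.28, limma adjusted p = 0.032). HSA32, a protein of acquired heat tolerance, differed by 0.93 (SE 0.20, limma adjusted p = 0.0133). All 3 calls ended without gun1-101 lincomycin replicate 2 (limma adjusted p = 0.0578, 0.0958 and 0.0536 for Hop3, Fes1A and HSA32) or replicate 3 (0.0662, 0.108 and 0.0513). That of Fes1A also ended without each Col-0 lincomycin array in turn (0.0546 to 0.0957). Fitted to the lincomycin groups alone, neither Hop3 nor Fes1A was called (limma adjusted p = 0.0594 and 0.0753).

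**Figure D2:**
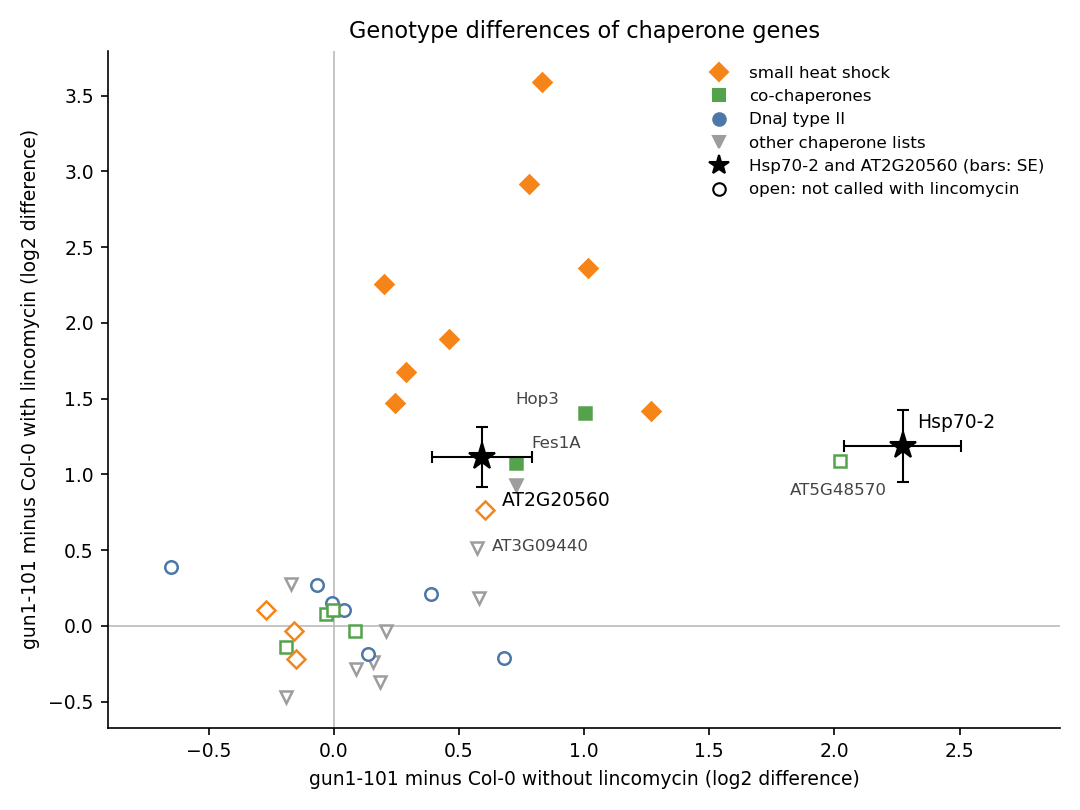
Log2 difference of gun1-101 minus Col-0 without lincomycin (horizontal axis) and with lincomycin (vertical axis) for the 35 measured chaperone genes and, as stars with SE bars, Hsp70-2 and AT2G20560. Filled symbols were called with lincomycin. Hsp70-2 lies at 2.27 and 1.19, close to AT5G48570 (ROF2, 2.02 and 1.09), while AT2G20560 lies at 0.59 and 1.11, close to Fes1A (0.73 and 1.07).

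Hsp70-2 had 1 measured relative among the cytosolic Hsp70 loci, AT3G09440. It read 10.48, 10.49 and 10.23 in untreated gun1-101 against 10.05, 9.76 and 9.67 in untreated Col-0, a log2 difference of 0.57 (SE 0.20, limma adjusted p = 0.352). On lincomycin the difference was 0.51 (SE 0.20, limma adjusted p = 0.14), or 0.75 without gun1-101 lincomycin replicate 1 (adjusted p = 0.0365). Cytosolic Hsp70 genes resemble each other closely, HSC70-1 (AT5G02500) lies next to Hsp70-2, and neither HSC70-1 nor the probe sequences are used here. Whether the Hsp70-2 probe set also took up transcripts of its relatives was not tested. The Hsp70 gene BIP1 of the endoplasmic reticulum differed between genotypes by -0.19 untreated and by -0.47 on lincomycin (limma adjusted p = 0.617 and 0.105). The Hsp110 and divergent Hsp70 loci AT1G11660 and AT4G16660 differed by 0.16 and 0.19 untreated and by -0.24 and -0.37 on lincomycin, and neither was called. AT4G16660 was called between genotypes on lincomycin without Col-0 lincomycin replicate 3 (-0.50, limma adjusted p = 0.0358), also with Col-0 control replicate 1 left out beside it (0.0114).

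AT2G20560 had 7 measured relatives in its list of DnaJ type II loci. None of the 7 was called between genotypes by limma. At an unadjusted p under 0.05 there were 2 untreated, AT1G59725 higher (0.68) and AT3G08910 lower (-0.65), and 0 on lincomycin, against 12.7% and 25.0% of all genes. On lincomycin the differences ran from -0.21 to 0.39 (median 0.15). In gun1-101, lincomycin raised AT3G08910 by 0.83 (SE 0.19, limma adjusted p = 0.0112) and AT5G01390 by 0.53 (SE 0.15, limma adjusted p = 0.027), and AT1G59725 fell by 0.55 (SE 0.17, limma adjusted p = 0.0402). The last 2 calls ended without several arrays, among them gun1-101 control replicate 2 (adjusted p = 0.0992 for AT5G01390 and 0.121 for AT1G59725). The loci AT4G28480 (0.31), AT1G10350 (-0.04), AT3G47940 (-0.14) and AT5G25530 (-0.18) were not called in that comparison. Of the DnaJ genes of organelles and the endoplasmic reticulum, ATJ1 rose in Col-0 on lincomycin by 0.48 (SE 0.12, limma adjusted p = 0.0169), a call lost with control replicate 2 of Col-0 left out (limma adjusted p = 0.0621) and with its lincomycin replicate 1 (0.0649) or 2 (0.0741) left out. ATERDJ3B fell by 0.35 in gun1-101 on lincomycin (limma adjusted p = 0.0466), a call that ended under 10 of the 12 single-array omissions (0.0558 to 0.147).

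Across lincomycin treatment, 12 of the 35 chaperone genes rose and 3 fell in gun1-101, where 10.9% of all genes were called higher and 9.51% lower. The 3 were AT1G59725, ATERDJ3B and AT4G16660 (-0.57, limma adjusted p = 0.0182), the last lost when control replicate 1 (0.0587), control replicate 2 (0.0695) or lincomycin replicate 3 (0.0632) of gun1-101 was left out. In Col-0, 7 rose and none fell by limma (1 lower at an unadjusted p under 0.05, against 12.7% of all genes), where 7.15% and 7.19% of genes were called. These were ATJ1, ROF2 (1.59), HSA32, the proteasome locus AT5G20000 (0.52) and the small heat shock genes AT5G51440 (1.68), AT5G37670 (1.39) and ATHSP22.0 (1.13). The call of ROF2 ended without Col-0 control replicate 2 or 3 or Col-0 lincomycin replicate 1 or 2 (limma adjusted p from 0.0676 to 0.0984). That of ATHSP22.0 ended without Col-0 control replicate 2 or 3 or Col-0 lincomycin replicate 2 (0.0519 to 0.0646). AT5G37670 lost its call under several omissions, among them Col-0 control replicate 3 (0.124). AT5G20000 lost its call without Col-0 control replicate 2 (0.0975) or Col-0 lincomycin replicate 2 (0.0812). Omitting control replicate 2, control replicate 3 or lincomycin replicate 2 of Col-0 left counts of 3, 4 and 2, where 1463, 1656 and 1356 of all 16548 genes were called. For the difference between the responses of the genotypes, 4 were called higher and 1 lower, where 6.97% of all genes were called (4.01% higher, 2.96% lower). The comparisons of treatments share their arrays with those of genotypes. HSA32 rose in both genotypes, by 1.23 in Col-0 (limma adjusted p = 0.00181) and by 1.43 in gun1-101 (limma adjusted p = 0.000865). In gun1-101 Fes1A rose by 1.13 (limma adjusted p = 0.0151). Its call was lost without gun1-101 control replicate 1 (0.0522) or gun1-101 lincomycin replicate 3 (0.0523), and its difference in Col-0 was 0.79 (limma adjusted p = 0.0809).

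The 3 gun1-101 lincomycin arrays differed among themselves in these genes. In both Hsp70-2 and AT2G20560, replicate 1 was lowest and replicate 2 highest. The same held for all 11 chaperone genes called higher in gun1-101 on lincomycin, for 19 of the 35 measured (54.3%) and for 16.6% of all genes. The genes were measured on the same arrays and are not independent of each other, and this pattern was singled out after its values were seen. The arrays' own correlations within this group were 0.9892 to 0.9913.

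**Figure D3:**
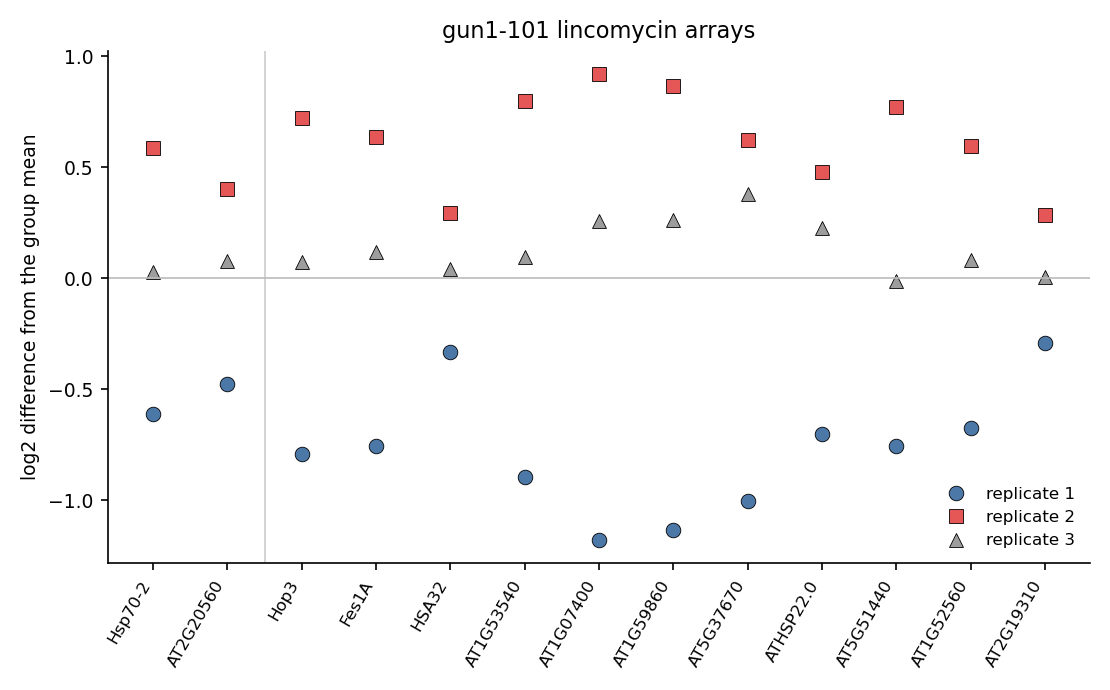
Log2 difference of each of the 3 gun1-101 lincomycin arrays from their mean, for Hsp70-2 and AT2G20560 (left of the line) and for the 11 chaperone genes called higher in gun1-101 on lincomycin. Symbols are replicates. In all 13 genes replicate 1 (circles) is lowest and replicate 2 (squares) highest.

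The genes most like each of the pair were taken by Pearson's r over the 12 arrays and all tested genes, as a description. For Hsp70-2 these were its relative AT3G09440 (r = 0.875), the glutamate receptor-like gene GLR2.7 (0.875), the plastid signal peptide peptidase gene SPPA (0.852), the DJ-1 family gene DJ1D (0.845) and AT4G05470 (0.842). For GLR2.7 the untreated arrays read 5.63, 5.80 and 6.30 in gun1-101 against 4.87, 4.39 and 4.55 in Col-0, a difference of 1.304. On lincomycin GLR2.7 differed between genotypes by 0.20. The untreated differences of AT4G05470, SPPA and DJ1D were 0.88, 0.43 and 0.40, and those on lincomycin 0.34, 0.36 and 0.41. Genes picked for likeness to Hsp70-2 over these arrays share its group differences by that choice, so no test of them is given.

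For AT2G20560 the closest genes were AT5G35320 (r = 0.979), Fes1A (0.977), AT4G15710 (0.965), AT5G34930 (0.963) and AT1G01240 (0.955). On lincomycin the difference of gun1-101 minus Col-0 was 1.07 for AT5G35320, 0.96 for AT1G01240, 0.79 for AT4G15710 and 0.20 for AT5G34930, likewise given with no test. Fes1A was also a member of the chaperone lists and was tested as such above. Hsp70-2 and AT2G20560 were less like each other, at r = 0.413. Hsp70-2 was number 3243 among the genes most like AT2G20560, and AT2G20560 was number 1438 among those most like Hsp70-2. The arrays behind every r fall into the same 4 groups, so a shared group difference sets much of it.

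**Figure D4:**
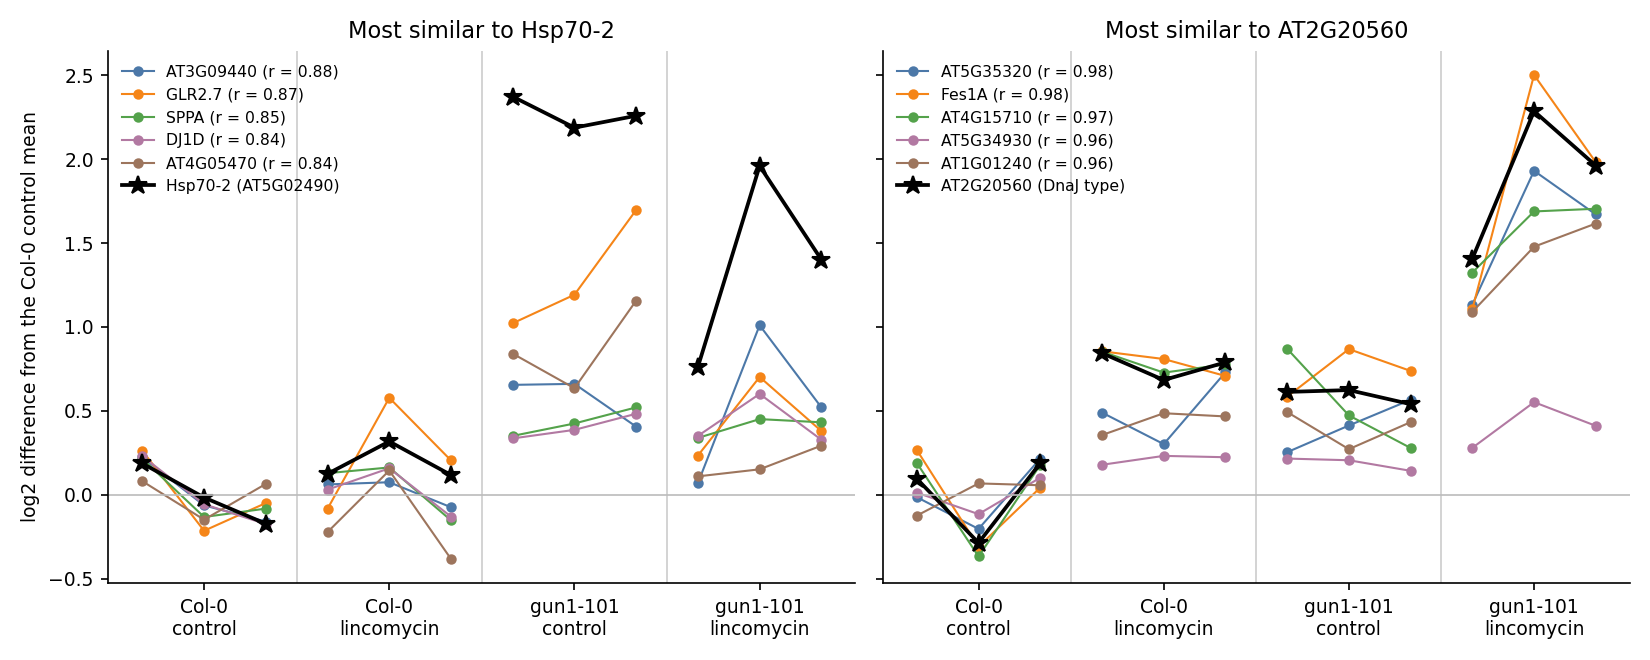
Log2 difference from the Col-0 control mean in each array, for Hsp70-2 with the 5 genes most like it (left) and AT2G20560 with the 5 genes most like it (right). Points within a group are replicates 1 to 3 from left to right, and r is Pearson's over 12 arrays. On the left the group means of gun1-101 lie above those of Col-0 in each condition, and on the right the highest group mean of each gene is that of gun1-101 on lincomycin.

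The genes next to the pair on the chromosome were looked at as well. Of 10 protein-coding loci around Hsp70-2, 5 on each side, 7 were measured and none was called between genotypes by limma (1 at an unadjusted p under 0.05 untreated and 4 on lincomycin, against 12.7% and 25.0% of all genes), with differences from -0.48 to 0.52 untreated and from -0.47 to 0.62 on lincomycin. Around AT2G20560, 4 of 10 were measured, with differences from -0.49 to -0.04 untreated and from -0.20 to 0.42 on lincomycin, none of them called and 0 at an unadjusted p under 0.05. With both Col-0 arrays that stood apart left out (control replicate 1 and lincomycin replicate 3), 4 neighbours of Hsp70-2 were called untreated (-0.65 to 0.395) and 5 on lincomycin (-0.43 to 0.875), where 17.2% and 24.7% of all genes were called. On lincomycin AT5G02440 and AT5G02450 were also called without Col-0 lincomycin replicate 3 alone (limma adjusted p = 0.0406 and 0.0113), and AT5G02480 was called with genes of a mean under 5 left out (0.0482) and with an intensity trend (0.0324). In the fit without both arrays, none was as large as the differences of Hsp70-2, 2.37 and 1.15. Hsp70-2 was chosen above all for its untreated levels, so this comparison of sizes is no test. The order of loci is that of the RefSeq assembly TAIR10.1.

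Markers of other tissues moved with some of these contrasts. Of 5 seed reserve loci 2 were measured. M17 read 8.84, 8.77 and 8.72 in untreated gun1-101 against 7.93, 5.45 and 6.67 in untreated Col-0, a difference of 2.09 (SE 0.53, limma adjusted p = 0.303, and 0.0264 without Col-0 control replicate 1). PAP85 differed by 0.82 (limma adjusted p = 0.367). On lincomycin M17 differed between genotypes by -0.72 (limma adjusted p = 0.432), or by -1.24 with both Col-0 arrays that stood apart left out (limma adjusted p = 0.0151). Of 7 leaf and guard cell loci 2 were measured: LHB1B2 was higher in gun1-101 on lincomycin by 3.39 (SE 0.25, limma adjusted p = 1.03e-05), and the guard cell factor gene FMA differed by 0.38 (limma adjusted p = 0.239). Of 10 root loci 2 were measured, PRX72 and EXPA7, with differences on lincomycin of 0.17 and 0.27, not called. With those arrays left out EXPA7 was called on lincomycin (0.40, limma adjusted p = 0.0493), and without Col-0 control replicate 1 it was called lower in untreated gun1-101 (-0.83, limma adjusted p = 0.0374). Across treatments, LHB1B2 fell by 4.36 in Col-0 on lincomycin (limma adjusted p = 5.96e-07) and differed in gun1-101 by -0.50 (0.173). FMA fell by 0.76 in Col-0 (limma adjusted p = 0.0194), a call that ended without Col-0 control replicate 2 or 3 or Col-0 lincomycin replicate 1 or 3 (0.0534 to 0.0684). PAP85 rose on lincomycin by 2.42 in Col-0 (limma adjusted p = 0.000634) and by 1.86 in gun1-101 (0.00341). M17 rose in Col-0 by 2.43 (limma adjusted p = 0.00993) and differed in gun1-101 by -0.38 (0.636). The M17 responses differed by -2.81 (limma adjusted p = 0.045), a call lost under 10 of the 12 single-array omissions (0.0673 to 0.115). In gun1-101 PRX72 (AT5G66390) rose on lincomycin by 0.45 (limma adjusted p = 0.0249), a call lost without control replicate 2 or 3 or any lincomycin replicate of gun1-101 (0.0518 to 0.0911). Untreated, LHB1B2 and FMA differed between genotypes by -0.47 and -0.41 without overlap of their arrays, and neither was called (limma adjusted p = 0.431 and 0.392). The part of these markers in the differences of Hsp70-2 and AT2G20560 was not tested.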

How the data were processed

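Total RNA of seedlings was turned into biotinylated cRNA for Affymetrix arrays, per the labels' protocols. Per the submitters' processing notes, the authors made the deposited log2 values with RMA (Affymetrix Expression Console 1.3). RMA brings arrays to like distributions and so hides a shift common to most transcripts. The number of arrays limits the precision.

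The platform annotation named 1 gene for 16722 of 38408 probe sets, several for 759 and none for 20927, and the last stay unnamed. Names came from the RefSeq table of TAIR10.1, which 16670 matched. The probe set with the highest mean stood for a gene (148 genes had several), leaving 16548 genes. With limma 3.58.1 in R 4.3.3, a mean per group was estimated from the 12 arrays, with no replicate block (8 residual degrees of freedom). Genes were called at a Benjamini-Hochberg adjusted p under 0.05 over all genes, two-sided. Errors are standard errors (SE) of this fit.

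The genes, the lists and the tests were chosen with earlier results of these data known. Named are the pair, called genes of the chaperone lists, every measured cytosolic Hsp70 and DnaJ type II gene, genes called between the untreated genotypes, and the 5 genes nearest each of the pair. Chromosomal neighbours and the order of gun1-101 lincomycin arrays were looked at after the values were seen. Protein and promoter sequences are not analysed here. Replicate numbers were not used to pair the samples in the main fit, and the labels do not say whether they do. Alternatives were a common median, a filter at a mean of 5, every probe set, the mean of probe sets, an intensity trend, the replicate block, only the groups compared, each array left out, both Col-0 arrays that stood apart left out, and, added after seeing the data, an array covariate.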

Additional observations from a re-analysis of the deposited data

Results flagged for a closer look

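The lincomycin differences of Hsp70-2 (AT5G02490) had opposite signs in the genotypes, although in Col-0 the arrays of the treatments overlapped and the difference of 0.19 was below its SE of 0.235. Every Col-0 lincomycin array lay above the Col-0 control mean and every gun1-101 lincomycin array below the gun1-101 control mean, and the responses differed by -1.085 on the log2 scale; this difference was not tested, as the gene was chosen for its untreated levels.

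Among the other chaperone genes, the test of the difference between responses in limma picked out 5, where 6.97% of all genes were called. The DnaJ type II locus AT3G08910 differed by 1.041 (limma adjusted p = 0.0406) and AT1G59725 by -0.892 (limma adjusted p = 0.0474). The small heat shock loci AT1G53540, AT4G10250 and AT1G52560 differed by 2.763, 1.385 and 2.058 (limma adjusted p = 0.00842, 0.0471 and 0.041). Each call except that of AT1G53540 ended when single arrays were left out, for example Col-0 control replicate 2, with limma adjusted p of 0.092 for AT3G08910, 0.0922 for AT1G59725, 0.0919 for AT4G10250 and 0.0861 for AT1G52560.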

How the results depend on the processing

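For Hsp70-2 and AT2G20560, 204 differences recomputed under the alternatives moved by less than the replicate SD or kept their call, and 4 did not, all lincomycin differences of Hsp70-2 with 1 gun1-101 lincomycin array left out. With single arrays left out, the difference of Hsp70-2 in gun1-101 ranged from -1.19 to -0.59 and that between the responses from -1.38 to -0.78. Counts over all genes were less steady. In the order gun1-101 minus Col-0 without and with lincomycin, lincomycin in Col-0, lincomycin in gun1-101 and difference of responses, the counts were 3, 1585, 2374, 3384 and 1153. With single arrays left out they ranged from 0 to 1054, 748 to 2463, 1356 to 3377, 1966 to 4289 and 379 to 3876. With both Col-0 arrays that stood apart left out they were 2854, 4087, 4784, 5141 and 5376. With every probe set the first 4 were 5, 2582, 4286 and 5789. A fit to the groups compared alone gave 1067 in Col-0, and the array covariate 527 for the difference of responses. That fit in Col-0 ended the calls of ATJ1 (limma adjusted p = 0.0912), AT5G20000 (0.104), AT5G37670 (0.0526), FMA (0.0551) and M17 (0.0695), and it called Fes1A (0.0407). Chaperone genes called ranged from 0 to 2, 6 to 14, 2 to 8, 10 to 15 and 1 to 8 with single arrays left out. The first and the last were 4 and 10 without both arrays, the first was 1 in the fit to the groups compared alone, and the last was 3 with the covariate. The causes were not tested.

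With the replicate block, 1 gene was called between the untreated genotypes. That count includes the pair, which was chosen for its untreated levels, and is no evidence about it. The calls of Hsp70-2 and AT2G20560 on lincomycin held (limma adjusted p = 0.0118 and 0.0094). Deviations of same-numbered arrays correlated over 0.1 in 7 of 18 pairs (-0.298 to 0.439). Between Col-0 control and Col-0 lincomycin the values were 0.439, -0.298 and 0.39 for replicates 1, 2 and 3. These values do not settle whether same-numbered samples share a batch, and the main fit used no replicate block.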
